A study of Mus musculus with 15 samples.

Results

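Cholesterol synthesis was followed in mouse skin through 7 genes of its enzymes, namely Hmgcs1, Idi1, Fdps, Fdft1, Sqle, Cyp51 and Dhcr7. They were chosen by symbol from a table of 18929 genes, with earlier results of these data known. All 7 were among the 15369 genes that passed the filter on low counts. The full name given to the set also mentions uptake, but every one of the 7 encodes a synthesis enzyme, so the receptors and transporters of uptake were taken from a separate list of 8 genes. RNA was sequenced from 15 samples of dorsal skin in 5 groups of 3. In 4 groups a full-thickness excisional wound of 10 mm or 15 mm had been filled with Matrigel beads, either acellular or printed as high cell density beads (HDB) laden with human mesenchymal stem cells (MSCs) from umbilical cord, with acellular beads in the remaining space, and the fifth group was normal skin. All animals were wild-type (WT) male balb/c mice of 4 to 6 weeks of age, and by the study's methods beads stayed in place for 4 weeks before sequencing, although the wound experiment is also said to have ended on day 21. The stem cells were human and the table lists mouse genes, so their own transcripts were not measured as such. Neither the sample labels nor the study's main text states that the 3 replicates of a group came from separate animals, so p-values measure the spread between these samples.

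The cell makes cholesterol from acetyl-CoA through mevalonate, the isoprenoid units, squalene and lanosterol. Transcription of nearly the whole pathway is switched on together by SREBP2, which leaves the endoplasmic reticulum for the nucleus when membrane sterol falls and binds sterol regulatory elements in promoters, usually beside sites for NF-Y or Sp1. In skin, cholesterol is made in the epidermis for the permeability barrier and in sebaceous glands, and dermal adipocytes store it.

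Because the 7 genes are textbook targets of one factor, their promoters were read first. RefSeq promoter windows of GRCm38.p6 (250 bases before to 50 after a gene's start, 300 in length) were matched for 4 of the 7, namely Hmgcs1, Idi1, Cyp51 and Dhcr7. The windows of Hmgcs1, Idi1 and Cyp51 are shown because these genes differed between wound sizes, and the first of 3 windows of Dhcr7 because it is the matched gene for which no difference passed the test. Capitals mark every match on either strand to the core sterol regulatory element TCACNCCAC, the NF-Y motif CCAAT, the Sp1 motif GGGCGG or the E-box CACGTG. A match on the other strand therefore reads ATTGG or CCGCCC.
Hmgcs1, chr13:119690101-119690400, plus strand: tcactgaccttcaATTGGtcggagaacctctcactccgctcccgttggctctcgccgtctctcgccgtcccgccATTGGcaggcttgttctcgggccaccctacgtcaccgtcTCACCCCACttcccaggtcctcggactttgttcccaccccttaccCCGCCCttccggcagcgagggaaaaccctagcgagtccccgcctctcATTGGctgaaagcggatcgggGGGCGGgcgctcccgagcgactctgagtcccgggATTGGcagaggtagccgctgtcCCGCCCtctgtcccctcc
Idi1, chr13:8885356-8885655, plus strand: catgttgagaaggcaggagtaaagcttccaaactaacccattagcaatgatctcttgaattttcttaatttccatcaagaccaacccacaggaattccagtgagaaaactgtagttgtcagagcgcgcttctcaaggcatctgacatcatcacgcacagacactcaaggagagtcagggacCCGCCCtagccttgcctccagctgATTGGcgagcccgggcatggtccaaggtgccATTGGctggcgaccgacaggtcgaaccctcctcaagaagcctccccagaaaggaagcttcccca
Cyp51, chr5:4104648-4104947, minus strand: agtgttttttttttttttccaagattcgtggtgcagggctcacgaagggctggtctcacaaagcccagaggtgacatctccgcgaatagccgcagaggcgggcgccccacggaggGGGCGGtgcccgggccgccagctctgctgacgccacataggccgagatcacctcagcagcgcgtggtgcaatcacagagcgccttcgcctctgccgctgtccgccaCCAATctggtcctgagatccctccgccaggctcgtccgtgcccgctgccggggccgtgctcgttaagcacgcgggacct
Dhcr7, chr7:143822917-143823216, plus strand: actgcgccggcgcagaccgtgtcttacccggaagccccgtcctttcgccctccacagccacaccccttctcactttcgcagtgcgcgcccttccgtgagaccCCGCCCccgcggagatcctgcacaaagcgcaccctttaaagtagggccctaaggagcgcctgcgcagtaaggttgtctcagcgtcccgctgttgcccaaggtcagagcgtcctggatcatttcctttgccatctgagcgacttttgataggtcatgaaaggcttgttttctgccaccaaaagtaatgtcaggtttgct
The Hmgcs1 window held 1 sterol element core, which began at -137 relative to the start site, with 4 NF-Y and 3 Sp1 matches around it. Of all 32851 promoter windows of the same length, 1.24% held that core, 37.4% held CCAAT, 35.7% held GGGCGG and 7.15% held CACGTG. Idi1 held 2 NF-Y matches and 1 Sp1 match, and Cyp51 held 1 of each. The first Dhcr7 window held 1 Sp1 match, its second window 1 E-box, and the last one 2 NF-Y and 3 Sp1 matches. The 17 genes of the synthesis pathway with a window had 20 windows, of which 16 held CCAAT and 1, that of Hmgcs1, held the sterol element core. By gene, 16 of the 17 had CCAAT in at least 1 window. No match overlapped another. These are matches of letters only, and a window without them says nothing of the factor.

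Total counts per sample ranged from 15840551 to 18404188. Log2 levels of replicates correlated across genes with r from 0.853 to 0.989. The lowest of these was between acellular 15 mm replicates 1 and 3, and replicate 1 of that group held a summed level of 21678 counts scaled by library size (CPM) over 11 tested of 12 listed hair shaft genes, against 6.03 to 6.32 CPM in normal skin, where Krt34, Krt81, Krt83, Krt86, Krt25 and Krt73 were at 0 in some or all samples. HDB 10 mm replicate 2 was the highest of the 15 samples in 6 of the 7 synthesis genes. Results are therefore also given without these 2 libraries. Levels are given as CPM after TMM normalization, and a gene is called where the adjusted p of edgeR's quasi-likelihood test, fitted on all genes, was under 0.05.

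Hmgcs1 encodes the cytosolic HMG-CoA synthase, which makes HMG-CoA, the precursor of mevalonate (chr13:119690351-119708260, Entrez 208715). In acellular 10 mm skin it stood at 875, 875 and 1044 CPM and in HDB 10 mm skin at 769, 1202 and 827 CPM. In acellular 15 mm skin it stood at 607, 439 and 641 CPM, in HDB 15 mm skin at 451, 497 and 483 CPM, and in normal skin at 548, 464 and 448 CPM. All 6 samples of the 10 mm wounds lay above all 6 of the 15 mm wounds and all 3 of normal skin, while the 15 mm and normal samples overlapped. The mean was 932 ± 161 CPM (SD, n = 6) at 10 mm, 519.8 ± 84.3 CPM (n = 6) at 15 mm and 487 ± 54.1 CPM (n = 3) in normal skin.

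Idi1, isopentenyl diphosphate isomerase, interconverts the isoprene units (chr13:8885606-8892396, Entrez 319554). Its levels were 581, 538 and 699 CPM in acellular 10 mm skin, 469, 1112 and 627 CPM in HDB 10 mm skin, 315, 269 and 363 CPM in acellular 15 mm skin, 281, 362 and 305 CPM in HDB 15 mm skin and 329, 299 and 252 CPM in normal skin. The highest sample, HDB 10 mm replicate 2, was 4.40 times the lowest, normal replicate 3. No 10 mm sample fell within the range of the 15 mm or normal samples.

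Fdps, farnesyl diphosphate synthase, joins isoprene units into the precursor of squalene and of prenylated proteins (chr3:89093588-89101967, Entrez 110196). It was measured at 246, 214 and 239 CPM in acellular 10 mm, 165, 311 and 178 CPM in HDB 10 mm, 197, 117 and 142 CPM in acellular 15 mm, 141, 142 and 149 CPM in HDB 15 mm and 160.0, 139 and 126 CPM in normal skin. Within each treatment the sizes did not overlap, but acellular 15 mm replicate 1 lay above the lowest 2 HDB 10 mm samples. Over both treatments the sizes therefore overlapped by these samples.

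Fdft1, squalene synthase, commits farnesyl diphosphate to sterols (chr14:63145150-63181687, Entrez 14137). Its levels were 248, 202 and 214 CPM in acellular 10 mm, 166, 265 and 178 CPM in HDB 10 mm, 119, 120.4 and 143 CPM in acellular 15 mm, 131, 129 and 139 CPM in HDB 15 mm and 164, 154 and 129 CPM in normal skin. The 10 mm samples were again the highest, although the lowest of them, at 166 CPM, was close to the highest normal sample at 164 CPM. Its 15 mm mean of 130.2 ± 9.65 CPM (SD, n = 6) was the only one of the 7 that lay below that of normal skin, 149 ± 17.8 CPM (n = 3).

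Sqle, squalene epoxidase, adds the oxygen that later becomes the sterol hydroxyl and is a rate-limiting step of the squalene and sterol branch (chr15:59315092-59331193, Entrez 20775). It stood at 202, 207 and 226 CPM in acellular 10 mm, 158, 268 and 182 CPM in HDB 10 mm, 147, 97.8 and 133 CPM in acellular 15 mm, 103, 105 and 110.2 CPM in HDB 15 mm and 114, 91.9 and 94.8 CPM in normal skin. Cyp51, the lanosterol demethylase (chr5:4080674-4104697, Entrez 13121), had a highest sample 4.56 times its lowest. Its levels were 689, 670.2 and 778 CPM in acellular 10 mm, 568, 1099 and 662 CPM in HDB 10 mm, 241, 329 and 434 CPM in acellular 15 mm, 366, 423 and 438 CPM in HDB 15 mm and 374, 275 and 255 CPM in normal skin. In both genes every 10 mm sample exceeded every other sample.

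Dhcr7, 7-dehydrocholesterol reductase, carries out the last step of the Kandutsch-Russell branch and competes with vitamin D synthesis for its substrate (chr7:143823167-143848410, Entrez 13360). It stood at 49.0, 43.3 and 50.7 CPM in acellular 10 mm, 37.9, 66.7 and 42.3 CPM in HDB 10 mm, 69.5, 38.6 and 35.4 CPM in acellular 15 mm, 42.7, 33.5 and 39.6 CPM in HDB 15 mm and 43.3, 36.2 and 47.2 CPM in normal skin. The groups overlapped, except that the acellular 10 mm samples lay just above those of HDB 15 mm skin, and the 2 highest samples were the 2 libraries named above, HDB 10 mm replicate 2 and acellular 15 mm replicate 1. The plot of levels by sample shows this gene beside the other 6.

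**Figure D1:**
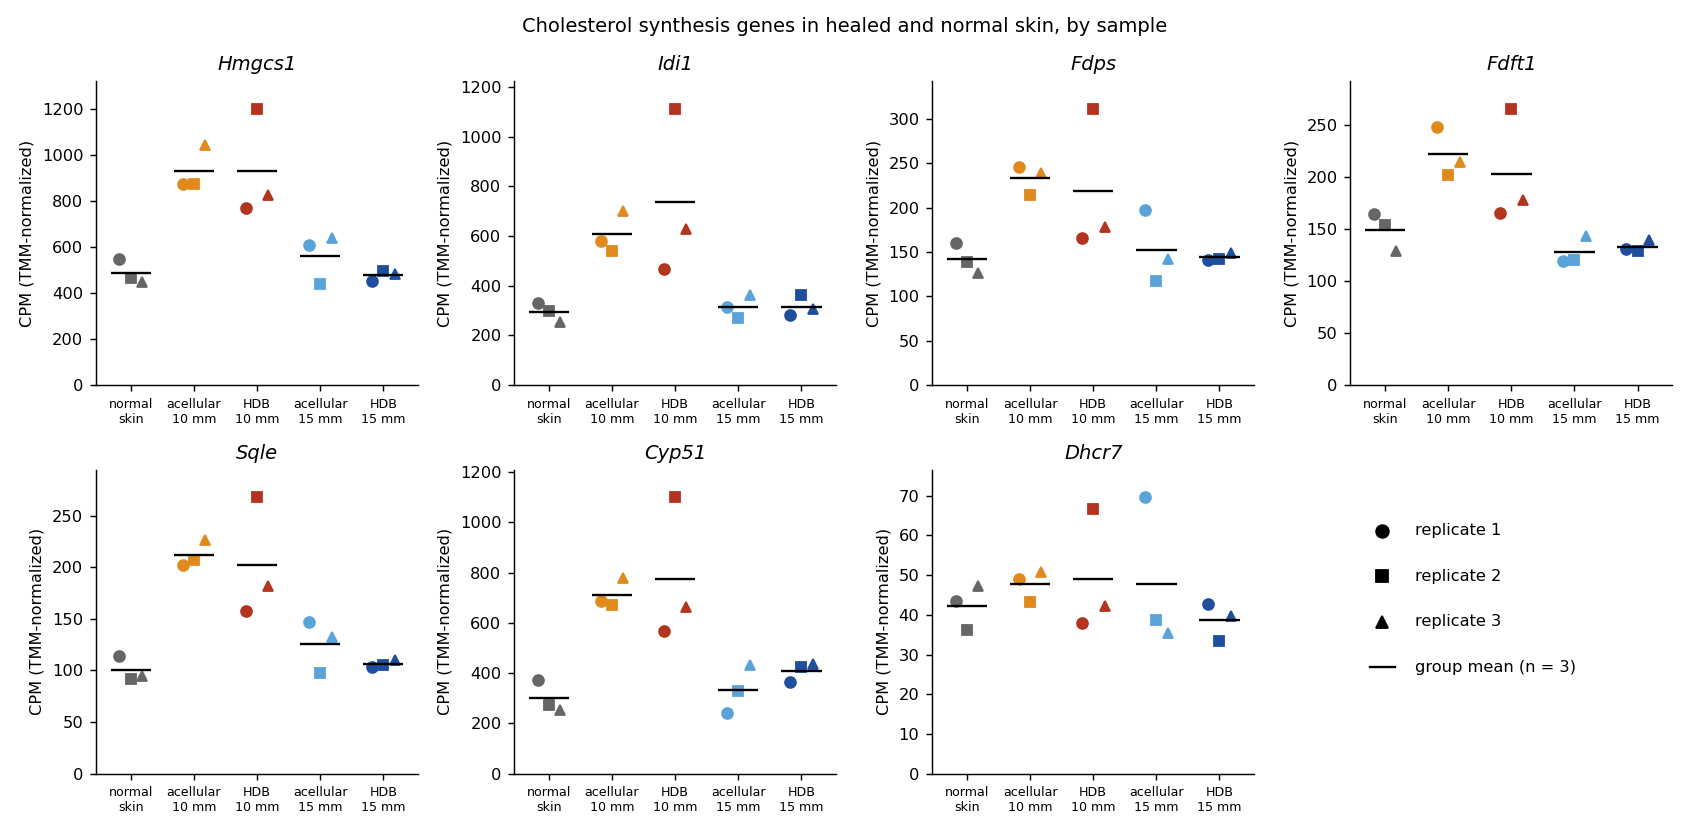
Levels (CPM after TMM normalization, linear axes from 0) of the 7 genes in each of the 15 samples, with 1 symbol per replicate and a line at the group mean. In Hmgcs1, Idi1, Fdft1, Sqle and Cyp51 the 6 samples of 10 mm wounds lie above all others, Fdps overlaps between the sizes, and the sizes overlap in Dhcr7.

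Wound size was compared over both treatments, as the mean of the 15 mm against 10 mm difference in acellular and in HDB skin. Of the 7 genes, 5 fell (Hmgcs1, Idi1, Fdft1, Sqle and Cyp51), beside 0.293% of all genes tested that fell and 0.397% that changed in either direction. The log2 fold change was -1.08 ± 0.19 (SE) for Idi1, -1.01 ± 0.19 for Cyp51, -0.85 ± 0.14 for Hmgcs1, -0.84 ± 0.14 for Sqle and -0.70 ± 0.12 for Fdft1, each with an adjusted p of 0.0487. Mean levels at 10 mm were thus 1.63 times (Fdft1) to 2.13 times (Idi1) those at 15 mm. Fdps had a log2 fold change of -0.61 ± 0.16 with an adjusted p of 0.107, and Dhcr7 of -0.17 ± 0.18 with an adjusted p of 0.772. Over the 7 genes the median was -0.84, against 0.03 over all genes tested. Because the 7 were chosen with earlier results of these data known, these contrasts with all genes are a description and not an independent test. In the same 5 genes every 15 mm sample lay below every 10 mm sample, a separation in this direction that 1.11% of all genes showed.

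The size difference was also taken within each treatment. On the log2 CPM scale the 15 mm minus 10 mm difference in acellular skin was -1.13 for Cyp51, -0.94 for Idi1, -0.80 for Fdft1, -0.77 for Sqle, -0.74 for Hmgcs1 and -0.65 for Fdps, and in HDB skin it was -0.87, -1.13, -0.58, -0.89, -0.94 and -0.54 in the same order. For Dhcr7 it was -0.06 in acellular and -0.30 in HDB skin. In 6 of 7 genes, all but Dhcr7, the 3 samples of each size were apart in both treatments, and 8.09% (acellular) and 11.8% (HDB) of all genes were apart in this direction. For these 6 the exact two-sided permutation test gave p = 0.1 in each treatment, the smallest that 3 against 3 samples allow, and for Dhcr7 the exact test gave p = 0.9 in acellular and p = 0.5 in HDB skin. Permuted within treatment over all 12 wound samples, the exact two-sided test gave p = 0.005, the smallest it can give, for the same 6 genes and p = 0.41 for Dhcr7.

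The adjusted p of 0.0487 lay close to the threshold, and the count of 5 depended on the settings. DESeq2 called 6 of the 7 (all but Dhcr7), beside 464 of 15369 genes lower and 559 higher. Upper-quartile scaling, no filter, a stricter filter, a fit of the wound groups alone and the replicate block each called 0. In each of these, 6 of 7 were at an unadjusted p under 0.05, beside 1893 (wound groups alone) to 2449 (no filter) of all genes. Of the 12 fits that left out 1 library, the 3 without acellular 15 mm replicate 1 (6 called), acellular 15 mm replicate 3 (5) or HDB 10 mm replicate 1 (5) kept calls. The other 9, without any 1 library of acellular 10 mm or HDB 15 mm skin, acellular 15 mm replicate 2 or HDB 10 mm replicate 2 or 3, gave 0. Without HDB 10 mm replicate 2 and acellular 15 mm replicate 1 together, 0 were called, with the lowest adjusted p at 0.0558. All 7 log2 fold changes were negative under every one of these settings. The number of beads grew with the wound, so wound size and bead number cannot be told apart.

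The rest of the pathway was described from lists of 53 genes, all of which passed the filter. Of the 20 synthesis genes, 10 fell from 10 mm to 15 mm and none rose, and their median log2 fold change was -0.75. Besides the 5 above these were Hsd17b7 (-1.20 ± 0.23), Lss (-1.09 ± 0.21), Msmo1 (-1.06 ± 0.19), Mvd (-0.86 ± 0.16) and Acat2 (-0.76 ± 0.14), each with an adjusted p of 0.0487. Acat2 makes acetoacetyl-CoA, Lss closes the first ring system of lanosterol, Mvd makes the first isoprene unit, and Hsd17b7 and Msmo1 trim lanosterol towards cholesterol. The synthesis genes at the other end were Ggps1 (0.17 ± 0.08) and Sc5d (0.25 ± 0.16), neither of which passed the test, and Lbr (-0.01 ± 0.21). Over all genes 61 were called between the sizes, of which 10 were among these 20 genes. The lists too were chosen with earlier results of these data known.

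None of the 8 genes of uptake and lysosomal release was called between the sizes, and their median log2 fold change was 0.22. Scarb1, the HDL receptor, stood at 0.68 ± 0.25 (adjusted p = 0.213). None of the 9 genes of sterol sensing was called, with Srebf2 at -0.21 ± 0.10, Srebf1 at -0.14 ± 0.16 and Insig1, which retains SREBP in the endoplasmic reticulum, at -0.36 ± 0.19. Likewise 0 of 7 genes of efflux and storage and 0 of 9 genes of fatty acid synthesis were called. In the last list Elovl6 stood at -0.92 ± 0.20 and Fads2 at 1.47 ± 0.43, so its members did not point one way. At an unadjusted p under 0.05 edgeR had 2 genes of uptake, 1 of sensing, 1 of efflux and storage and 5 of fatty acid synthesis, and DESeq2 called 0, 1 (Scap), 1 (Soat1) and 5 (Elovl6, Acss2, Scd2, Fads1 and Fads2) of them, against 16 of the 20 synthesis genes. Over all 15369 genes edgeR had 2314 at an unadjusted p under 0.05, and DESeq2 called 559 higher and 464 lower.

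**Figure D2:**
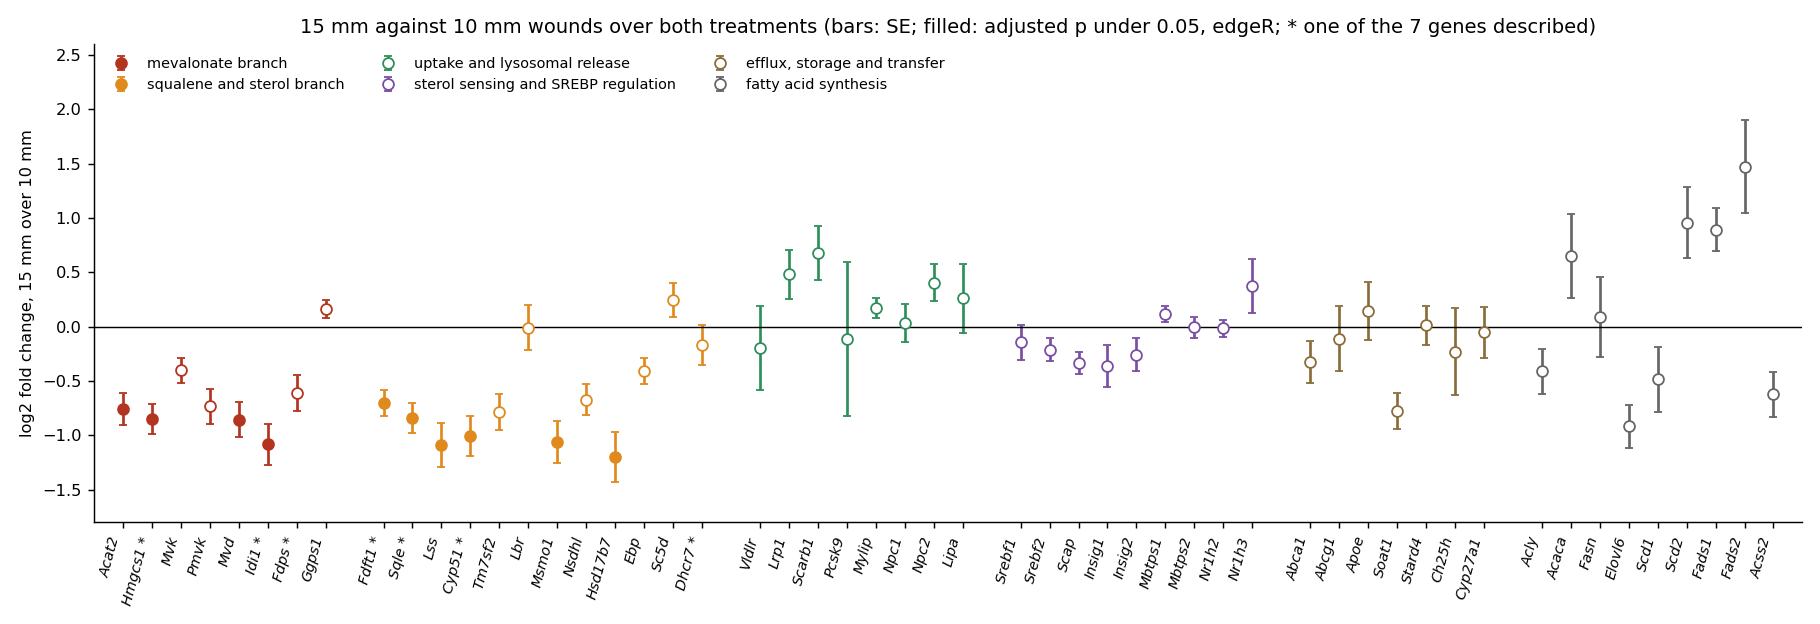
Log2 fold change of 15 mm over 10 mm wounds (both treatments, edgeR estimate, bars are SE) for 53 genes in 6 lists, filled where the adjusted p was under 0.05 and starred for the 7 genes described. Filled points occur in the mevalonate and the squalene and sterol branch, all between -0.70 and -1.20, and in none of the other 4 lists.

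Summed levels of sebaceous gland markers did not overlap between the sizes, while those of the other lists given here did, as the plot of marker sums shows. Taken singly, 3 of the 12 sebaceous markers (Awat1, Elovl3 and Far2) had every 15 mm sample below every 10 mm sample, against 1.11% of all genes. The other sebaceous markers overlapped between the sizes. The summed level of 12 sebaceous gland markers was 7983 to 8372 CPM in acellular 10 mm, 6397 to 11133 CPM in HDB 10 mm, 4158 to 5231 CPM in acellular 15 mm, 4229.9 to 4785 CPM in HDB 15 mm and 3204 to 4697 CPM in normal skin. Its highest sample was HDB 10 mm replicate 2, the highest also in 6 of the 7 synthesis genes. Of the 12 markers edgeR called 0 between the sizes (lowest adjusted p 0.0526, Far2), with 11 at an unadjusted p under 0.05 and 9 called by DESeq2. Over all 15369 genes 2314 were at an unadjusted p under 0.05 between the sizes, and DESeq2 called 559 higher and 464 lower. All 12 sebaceous markers had a negative log2 fold change with a median of -0.84, and none was at 0 in any sample. Dermal adipocyte markers had a sum of 482 to 2191 CPM at 10 mm and 1606 to 6795 CPM at 15 mm, 0 of 8 called by edgeR, 8 at an unadjusted p under 0.05, 8 called by DESeq2 and a median log2 fold change of 1.73, and none was at 0. Hair shaft genes summed to 15.1 to 1415 CPM at 10 mm and 25.3 to 21678 CPM at 15 mm, all 11 had a positive log2 fold change, edgeR called 0, 10 were at an unadjusted p under 0.05, and DESeq2 called 8. The part of these cells in the difference of the synthesis genes was not tested, and in bulk skin fewer cells of a type and less RNA per cell cannot be told apart.

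**Figure D3:**
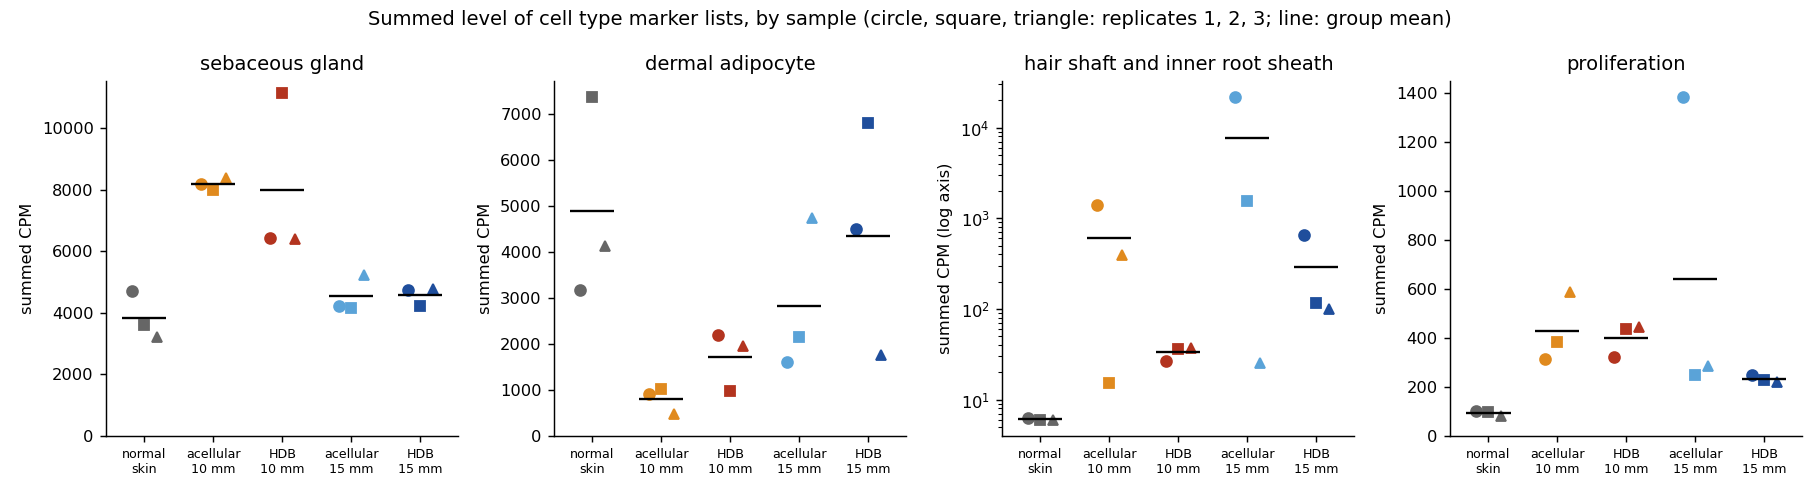
Summed CPM of 4 marker lists in each sample (12 sebaceous gland, 8 dermal adipocyte, 11 hair shaft and 6 proliferation genes), with 1 symbol per replicate and a line at the group mean, the hair shaft panel on a log axis. Sebaceous gland sums of the 10 mm samples (6397 CPM and more) lie above those of the 15 mm samples (5231 CPM and less), and 1 acellular 15 mm sample stands at 21678 CPM in the hair shaft panel.

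Against normal skin 6 of the 7 genes were called higher in acellular 10 mm wounds, 4 in HDB 10 mm wounds and 0 in 15 mm wounds of either treatment. In acellular 10 mm skin 6 of 7 rose, beside 9.77% of all genes. The log2 fold changes were 1.24 ± 0.27 for Cyp51 (adjusted p = 0.0115), 1.08 ± 0.19 for Sqle (0.0064), 1.05 ± 0.27 for Idi1 (0.0201), 0.94 ± 0.20 for Hmgcs1 (0.0112), 0.72 ± 0.23 for Fdps (0.0471) and 0.57 ± 0.17 for Fdft1 (0.0356). Dhcr7 stood at 0.17 ± 0.26 and was not called. In HDB 10 mm skin 4 of 7 rose, beside 6.1% of all genes, namely Cyp51 (1.37 ± 0.27), Idi1 (1.33 ± 0.27), Sqle (1.02 ± 0.19) and Hmgcs1 (0.94 ± 0.20), with adjusted p from 0.0133 to 0.0173. Fdps at 0.63 ± 0.23 and Fdft1 at 0.45 ± 0.17 missed the threshold there, with adjusted p of 0.0921 and 0.0995. Every 10 mm sample of either treatment exceeded every normal sample in 6 of the 7, a separation that 20.9% of all genes showed, while at 15 mm 0 of the 7 did, against 12.6% of all genes. These comparisons share the 3 normal samples with each other and with those at 15 mm.

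The counts against normal skin leaned on single libraries. In acellular 10 mm skin the count was 6 and fell to between 1 and 4 when any 1 library was left out, lowest without normal replicate 3. In HDB 10 mm skin it was 0 without HDB 10 mm replicate 2 or without normal replicate 3 and 2 without normal replicate 2. With HDB 10 mm replicate 2 and acellular 15 mm replicate 1 both left out it was 4. The log2 fold changes of the called genes stayed positive in all of these fits, with Idi1 in HDB skin between 0.91 and 1.59.

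In acellular 15 mm skin 0 of 7 were called by edgeR against normal skin, 0 at an unadjusted p under 0.05 and 0 by DESeq2, and the same held in HDB 15 mm skin, beside 30.2% and 5.18% of all genes called in either direction. At an unadjusted p under 0.05 there were 6729 and 4133 of 15369 genes. The extremes were Fdft1 (-0.22 ± 0.17) and Sqle (0.33 ± 0.19) in acellular 15 mm skin, and Fdft1 (-0.17 ± 0.17) and Cyp51 (0.44 ± 0.26) in HDB 15 mm skin. The 95% intervals of the 7 genes reached from -0.59 to 0.74 in the former and from -0.69 to 1.01 in the latter, and in 6 of the 7, all but Dhcr7, the interval at 15 mm lay below the estimate for 10 mm skin of the same treatment. Over all 4 wound groups together 4 of 7 rose (Cyp51 0.80 ± 0.22, Idi1 0.65 ± 0.22, Sqle 0.63 ± 0.16 and Hmgcs1 0.51 ± 0.16), beside 14.2% of all genes, and 0 were called without normal replicate 2 or without normal replicate 3 and 2 without normal replicate 1. The exact two-sided permutation test of 12 against 3 samples gave p from 0.0505 (Cyp51) to 0.119 (Idi1) for these 4.

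Among the 20 synthesis genes 13 rose in acellular 10 mm and 11 in HDB 10 mm skin, beside 9.77% and 6.1% of all genes. In acellular 15 mm skin 1 rose, Ggps1 (0.34, adjusted p = 0.0447), which makes geranylgeranyl diphosphate for protein prenylation, while in HDB 15 mm skin edgeR called 0, with 1 at an unadjusted p under 0.05 and 1 called by DESeq2 (Ebp). The call of Ggps1 held in 2 of 6 fits that left out 1 library, those without acellular 15 mm replicate 3 or normal replicate 3, and was lost with no filter, the replicate block (with or without removal of the length trend) and a fit of the groups compared alone. The largest rise at 10 mm outside the 7 on this list was that of Msmo1, at 1.09 in acellular and 1.20 in HDB skin. Nsdhl (1.00 and 0.95), Lss (0.95 and 1.04), Acat2 (0.90 and 0.94), Mvd (0.85 and 0.77), Pmvk (0.81 and 0.82) and Ebp (0.67 and 0.68) also rose in both. Leaving out 1 library gave 2 to 9 calls in acellular 10 mm skin, lowest without normal replicate 3, with 4 without acellular 10 mm replicate 1 or normal replicate 2 and 8 without acellular 10 mm replicate 2 or 3. In HDB 10 mm skin it gave 0 to 15, with 0 without HDB 10 mm replicate 2 or normal replicate 3, 4 without normal replicate 2, 6 without normal replicate 1 and 7 without HDB 10 mm replicate 3. In each of these fits at least 18 of the 20 log2 fold changes were positive.

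Outside synthesis genes were called against normal skin in both directions, and the calls named here are those of edgeR unless stated. Scarb1 fell at 10 mm (by 1.77 on the log2 scale in acellular and by 1.51 in HDB skin). At 15 mm it stood at -0.97 (acellular) and -0.95 (HDB), with adjusted p of 0.0536 and 0.113 by edgeR, and DESeq2 called it in both. In acellular 10 mm skin Mylip, which tags lipoprotein receptors for degradation, fell by 0.46 and Npc2, a lysosomal cholesterol carrier, fell by 0.76. Vldlr, a lipoprotein receptor, averaged 135 CPM in normal skin and 41.1 to 53.8 CPM in the 4 wound groups. It fell by 1.72 in acellular 15 mm skin and by 1.60 over all wounds, stood at -1.66 (acellular 10 mm), -1.33 (HDB 10 mm) and -1.67 (HDB 15 mm) elsewhere without passing edgeR's test, and DESeq2 called it in each wound group but HDB 10 mm. Npc1 rose in acellular 15 mm skin (0.88). Of the regulators Srebf2 rose in both acellular groups (0.55 and 0.56), while in HDB skin it stood at 0.41 (10 mm) and -0.01 (15 mm) without passing edgeR's test, and DESeq2 called it in HDB 10 mm skin too. Insig2 rose in acellular 10 mm (0.94), HDB 10 mm (0.87) and acellular 15 mm skin (0.61), and Scap, the escort of SREBP, rose at 10 mm (0.59 and 0.51). EdgeR called neither Srebf1 nor Insig1 in any group, while DESeq2 called Insig1 in HDB 10 mm skin (0.81 by edgeR, adjusted p = 0.0664) and over all wounds (0.55, adjusted p = 0.0753). Apoe rose in acellular 10 mm (1.42), acellular 15 mm (1.08) and HDB 15 mm skin (1.51), and Soat1, which esterifies cholesterol for storage, rose at 10 mm (1.07 and 1.27). Of the fatty acid genes, 1 of 9 rose at 10 mm, Elovl6 (1.46 and 1.76), which also rose in acellular 15 mm skin (0.91). Mbtps1, a protease that releases SREBP, rose in acellular 15 mm skin (0.29), and Abca1, which exports cholesterol to lipoproteins, rose over all wounds (0.65). Many of these calls were lost when 1 library was left out. Of 6 such fits a comparison, Mylip was called in 0 and Npc2 in 2 in acellular 10 mm skin, Scarb1, Insig2 and Scap each in 1 in HDB 10 mm skin, and Apoe in 1 in each of its 3 groups. Elovl6 was called in 6 of 6 in acellular 10 mm and 5 of 6 in HDB 10 mm skin but in 2 of 6 in acellular 15 mm skin, Srebf2 in 2 of 6 in acellular 10 mm and 5 of 6 in acellular 15 mm skin, Scarb1 in 6 of 6 in acellular 10 mm skin, Vldlr in 2 and Mbtps1 in 1 in acellular 15 mm skin, and Abca1 in 2 of 15 fits over all wounds.

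**Figure D4:**
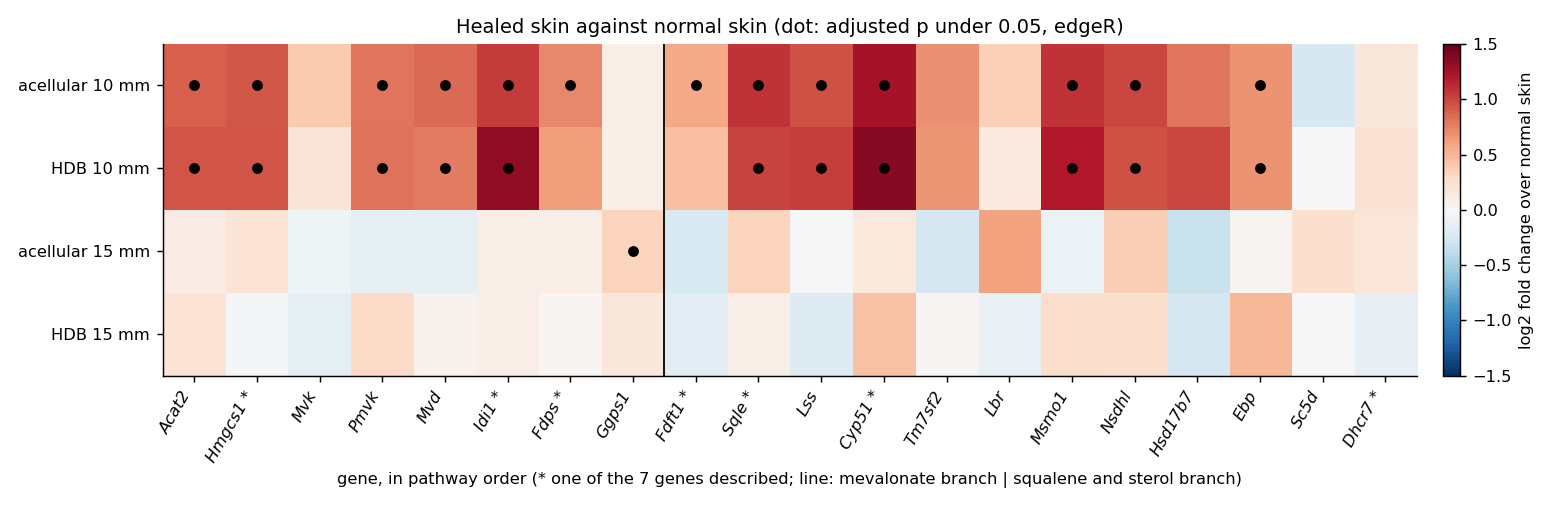
Log2 fold change over normal skin (colour) of the 20 synthesis genes in pathway order in the 4 wound groups, with a dot where edgeR's adjusted p was under 0.05 and stars for the 7 genes described. The 10 mm rows hold 13 and 11 dots, and the 15 mm rows hold 1 and 0.

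Marker genes of other cell types also differed between normal skin and the wounds. Over all 15369 genes edgeR called 1501 higher and 1624 lower in acellular 10 mm and 937 and 958 in HDB 10 mm skin. At 15 mm it called 2701 and 1941 in acellular and 411 and 385 in HDB skin, and over all wounds 2182 and 2564. In HDB skin 4862 (10 mm) and 4133 (15 mm) genes were at an unadjusted p under 0.05. There DESeq2 called 1786 higher and 2018 lower at 10 mm, and 1333 and 1531 at 15 mm. The sum of 7 skeletal muscle markers was 42317 to 50726 CPM in normal skin and 534 to 30225 CPM in the wounds, with none at 0 and 1 of 7 called lower over all wounds. Of 8 dermal adipocyte markers all fell in acellular 10 mm skin and 6 fell over all wounds. In HDB 10 mm skin edgeR called 0 of them, with 7 at an unadjusted p under 0.05 and 5 called by DESeq2, and at 15 mm both tools called 0 in either treatment, with 0 at an unadjusted p under 0.05. All 6 proliferation markers rose at 10 mm in both treatments and over all wounds, and 6 of them rose in acellular 15 mm and 1 in HDB 15 mm skin. In HDB 15 mm skin all 6 were at an unadjusted p under 0.05, and DESeq2 called 4. The sum of the 6 was 315 to 589 CPM at 10 mm, 249 to 1384 CPM in acellular 15 mm and 221 to 248 CPM in HDB 15 mm skin, against 81.2 to 99.8 CPM in normal skin. Of 5 endothelial markers 5 fell in both acellular groups and over all wounds, and in HDB skin 4 fell at 10 mm. In HDB 15 mm skin edgeR called 0 of the 5, with 4 at an unadjusted p under 0.05 and 3 called by DESeq2. Of 8 macrophage markers 6 fell in acellular 10 mm skin and over all wounds, 5 in acellular 15 mm skin, and 3 with HDB at 10 mm, while with HDB at 15 mm edgeR and DESeq2 called 0, with 0 at an unadjusted p under 0.05. Of 10 epidermal markers the basal keratins Krt5 (1.07) and Krt14 (1.33) rose over all wounds, while Krt10 (-0.95), Krtdap (-1.21), Lor (-1.84) and Flg2 (-1.64) of the differentiating layers fell. All 11 hair shaft genes rose by edgeR in acellular 15 mm skin and 4 in acellular 10 mm skin. In HDB skin edgeR called 0 of them, with 1 at an unadjusted p under 0.05 and 4 called by DESeq2 at 10 mm, and 11 and 10 at 15 mm. Of the sebaceous gland markers 7 of 12 rose in acellular 10 mm and 6 of 12 in HDB 10 mm skin, against 1 and 0 at 15 mm by edgeR. In HDB 15 mm skin 2 were at an unadjusted p under 0.05 and DESeq2 called 2, Elovl3 and Krt79. Their part in the result was not tested.

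The question the study's design puts is whether skin healed with HDB beads differs from skin healed with acellular beads. For the 7 genes no such difference was detected. In 10 mm wounds, in 15 mm wounds and in the sizes combined 0 of 7 were called by edgeR, 0 reached an unadjusted p under 0.05 and 0 were called by DESeq2, beside 0%, 2.93% and 0% of all genes called by edgeR. At an unadjusted p under 0.05 there were 543, 3567 and 2428 of 15369 genes. At 10 mm the log2 fold changes lay between -0.13 (Fdft1) and 0.28 (Idi1), and at 15 mm between -0.31 (Dhcr7) and 0.29 (Cyp51). No gene of the 7 had HDB samples apart from acellular samples at either size, a separation in either direction that 11% and 20.3% of all genes showed. Over both sizes the values lay between -0.15 (Sqle) and 0.21 (Cyp51), with exact two-sided permutation p from 0.28 to 0.71.

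At 15 mm same-numbered samples of both treatments were also taken as pairs, in a fit of these 2 groups with the pair as a block. EdgeR then called 0 of the 7 and 0 of all genes, with 0 of the 7 at an unadjusted p under 0.05. A fit of these 2 groups alone without the block also called 0 of 14980 genes. Cyp51 was higher with HDB in 3 of 3 pairs, by 0.60, 0.36 and 0.01 on the log2 CPM scale (paired estimate 0.32 ± 0.25, adjusted p = 0.632 by edgeR), and each of the other 6 genes had pairs in both directions.

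The 95% intervals of the HDB effect reached from -0.60 to 0.85 at 10 mm and from -0.87 to 0.86 at 15 mm, and over both sizes from -0.53 to 0.61. A change as large as that between wound sizes (-0.70 to -1.08 in the 5 called genes) was outside the interval over both sizes for each of the 7, while smaller changes lay within it for some or all of the genes. The difference of the HDB effect between sizes was also tested. It was called for 0 of 7 genes by edgeR (0 at an unadjusted p under 0.05, 0 by DESeq2) and lay between -0.35 (Dhcr7) and 0.18 (Fdft1), with intervals that reached from -1.14 to 0.97, and edgeR called 0% of all genes for it, while DESeq2 called 273 higher and 595 lower. Of the 20 synthesis genes 0 were called by edgeR or DESeq2 at either size. With an unadjusted p under 0.05 there were 0 at 10 mm and 2 at 15 mm, beside 543 and 3567 of 15369 genes. Without acellular 15 mm replicate 3 edgeR called 1 of the 20 lower at 15 mm. Among the regulators Srebf2 at 15 mm stood at -0.57 ± 0.14 with an adjusted p of 0.0543 by edgeR and was called by DESeq2, which also called it over both sizes (-0.35 ± 0.10, adjusted p = 0.261 by edgeR). DESeq2 further called Npc1 of the uptake genes and Stard4 of the efflux and storage genes at 15 mm, and edgeR called 0 genes of these lists.

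**Figure D5:**
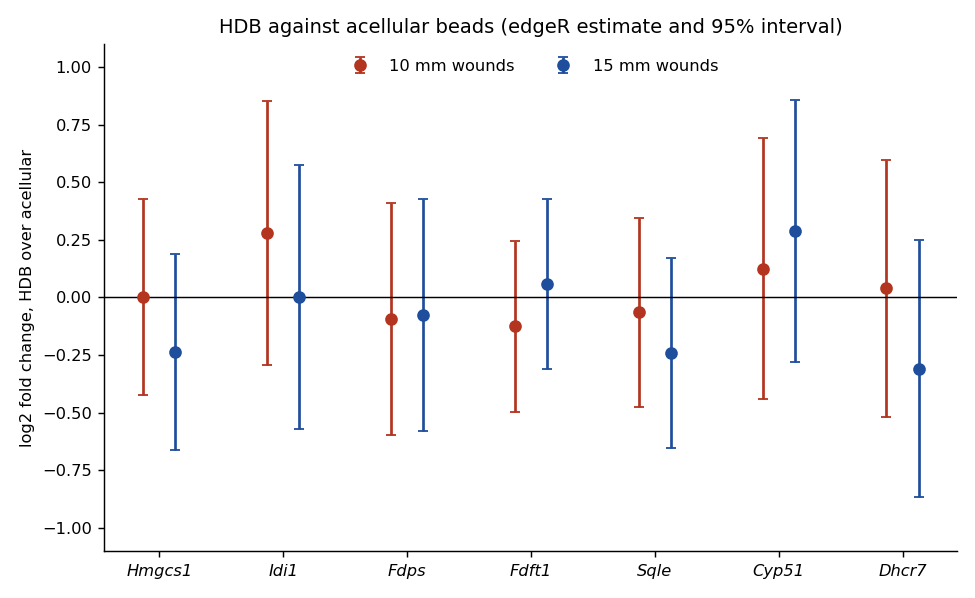
Log2 fold change of HDB over acellular skin for the 7 genes at each wound size, with points at edgeR's estimate and bars for the 95% interval. Every interval includes 0, and the estimates lie between -0.31 and 0.29.

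How the 7 genes varied together was described after subtracting group means from log2 CPM, which leaves the variation among replicates. Over the 15 samples, which the genes share, Pearson's r was 0.42 to 0.95 in the 15 pairs without Dhcr7, highest for Hmgcs1 with Sqle and lowest for Fdps with Cyp51. In the 6 pairs with Dhcr7 it was 0.01 (Cyp51) to 0.81 (Fdps). Without HDB 10 mm replicate 2 and acellular 15 mm replicate 1 the range over 13 samples was 0.54 to 0.94 without Dhcr7 and -0.20 to 0.10 with it. The likeness of Dhcr7 to the others thus rested on these 2 libraries.

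Among the 10 of 15362 other genes most like the mean of the 7 (each scaled to its own spread, group means subtracted) were Elovl3 (r = 0.93), Plpp6 (0.93), Mid1ip1 (0.91), Acp6 (0.91), Acat2 (0.90), Rpia (0.89), Tmem132a (0.88), Capn10 (0.86) and Alg14 (0.86), over 15 samples. Before subtraction r was 0.91 for Elovl3. Without the 2 libraries named above r was 0.47 (Alg14) to 0.78 (Elovl3), and ranked by Spearman's rho 5 of the 10 would be named again. Acat2 belongs to the synthesis pathway, and Elovl3, a fatty acid elongase of the sebaceous gland, was on the sebaceous list. Elovl3 averaged 504 ± 187 CPM (SD, n = 6) at 10 mm, 250.3 ± 27.9 CPM (n = 6) at 15 mm and 148 ± 37.0 CPM (n = 3) in normal skin, and between the sizes it stood at -1.01 ± 0.21 with an adjusted p of 0.0555.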

How the data were processed

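RNA of 15 skin samples was sequenced in 5 groups of 3. The authors deposited estimated counts per gene, made with HISAT2 2.0.4, Bowtie2 2.2.5 and RSEM 1.2.12 on GRCm38.p6 per the submitters' processing notes, and these were rounded to whole numbers. Genes with low counts were removed with filterByExpr of edgeR 4.0.16 (R 4.3.3), counts were scaled by TMM, and 1 quasi-likelihood model with a mean per group was fitted to all 15369 remaining genes, with Benjamini-Hochberg adjustment at 0.05. Single genes were also tested by exact permutation of log2 CPM. The 7 genes and all lists were chosen with earlier results of these data known. Named genes were the 7, genes of each pathway list called by edgeR or DESeq2, Srebf1, Srebf2 and Insig1, and genes among the 10 of most similar pattern. Sc5d and Lbr were named for the other end of the size comparison, and single genes of the marker lists were also named. Some genes of the pathway are not reported here, and the lists, counts and medians leave them out. Levels were not compared between genes, because the transcript lengths at hand were medians over annotated transcripts.

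Alternatives were DESeq2 1.42.0, upper-quartile scaling, no filter, a mean of at least 50 counts, a log2 fold change of at least 1, removal of the trend with transcript length, the groups compared alone, the replicate number as a block and leaving out each library. Same-numbered samples correlated above 0.1 in all 3 pairs (r = 0.397, 0.167 and 0.183) only between acellular and HDB 15 mm skin, of 10 pairs of groups. There the numbers were taken as pairs, from the data and not from the labels, in a fit of these groups alone that was added after seeing the data. On simulated counts for the size comparison 54% of genes changed by 1 on the log2 scale were recovered among 15262 genes, and 88% of those changed by 2 among 15267. Intervals cover the spread between these samples only.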

Additional observations from a re-analysis of the deposited data

Results flagged for a closer look

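The effect of wounding, each wound size against the same normal skin, differed between the sizes for 5 genes by the test of the difference itself, which is the 15 mm against 10 mm comparison in edgeR with an adjusted p of 0.0487 each. The log2 fold change was -0.85 for Hmgcs1, -1.08 for Idi1, -0.70 for Fdft1, -0.84 for Sqle and -1.01 for Cyp51, and in each gene all 6 samples at 15 mm were below all 6 at 10 mm. Over the alternatives tried the adjusted p of these genes ranged from 3.17e-06 to 0.135.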

How the results depend on the processing

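The size comparison called 5 of the 7 genes and 10 of the 20 synthesis genes. Requiring a log2 fold change of at least 1 left 2 and 5. Upper-quartile scaling, no filter, a mean of at least 50 counts, the wound groups alone, the replicate block, the block with the length trend removed, and leaving out HDB 10 mm replicate 2 with acellular 15 mm replicate 1 (chosen after seeing the data) each left 0 and 0. Leaving out 1 library gave 0 to 6 and 0 to 13, while DESeq2 gave 6 and 16 and removal of the length trend 5 and 9. Over all genes the comparison called 61, DESeq2 1023, no filter 1 and upper-quartile scaling 0. The cause was not tested. Acellular 10 mm against normal skin called 6, with 3 at a log2 fold change of at least 1 and 1 to 4 without 1 library. HDB 10 mm against normal skin called 4, with 0 to 6 without 1 library. All wounds against normal skin called 4, with 0 at a log2 fold change of at least 1, 2 with the replicate block, 2 with the block and the length trend removed, and 0 to 4 without 1 library. The block changed no other count of the 7 by over 1.5 times.

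Directions that turned were those of values that never passed the test. For HDB against acellular skin at 10 mm, leaving out 1 library moved Idi1 between -0.13 and 0.55 and Fdft1 between -0.35 and 0.029, and at 15 mm Dhcr7 between -0.49 and 0.062. The difference of the HDB effect between sizes moved between -0.54 and 0.023 for Dhcr7, and Dhcr7 in HDB 10 mm against normal skin between -0.068 and 0.39. Without both libraries named above Idi1 stood at -0.15 (10 mm), Dhcr7 at 0.062 (15 mm), at 0.31 (difference between sizes), at -0.075 (HDB 10 mm against normal) and at -0.054 (all wounds), and Cyp51 at -0.056 (HDB against acellular, both sizes). With 3 samples a group, effects smaller than the printed intervals were not detectable, and 1 library could decide a call.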
